A study of Mus musculus with 4 samples.

Results

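The genes described here are 33 genes of glycolysis and of the response to low oxygen, among 32285 genes measured in 33368 single cells from 4 samples of mouse melanoma. The list is of named genes of the pathways, with no threshold on a value: 16 glycolytic genes, 16 other targets of hypoxia-inducible factor (HIF) and Hif1a, which encodes the oxygen-regulated subunit of HIF-1. All 33 are present in the count matrix, with at least 1 UMI (unique molecular identifier, a count of single RNA molecules) in every tumour. The tumours were grown from YUMM1.7 cells carrying the model antigen ovalbumin, in Rag2-/- mice, which make no T or B cells of their own. Each mouse received activated ovalbumin-specific OT-1 T cells on day 7, and live CD45+ cells, that is leukocytes, were sorted on day 10, 72 h after the transfer. NTT tumours came from cells naive to targeted therapy, labelled as clone 3A6, and RTT tumours from the resistant line, which was kept in the BRAF inhibitor dabrafenib in culture. RTT_ROSA26 tumours came from resistant cells with a control guide to the Rosa26 locus, and RTT_PTGS12KO tumours from resistant cells in which Ptgs1 and Ptgs2, the genes of both cyclooxygenases that start prostaglandin synthesis, were knocked out. The knockout was in the cancer cells and not in the leukocytes measured here. There is 1 sample per group, called a tumour here, although the sources differ on what it holds: 1 tumour by the labels, pooled tumours by the study's figure legends. No spread within a group could therefore be estimated, and no difference was tested.

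Glycolysis splits glucose into pyruvate and yields ATP without oxygen. Lactate dehydrogenase turns pyruvate into lactate, which leaves the cell through monocarboxylate transporters. HIF-1 alpha is made all the time and, when oxygen is present, is hydroxylated by prolyl hydroxylases, bound by the VHL protein and degraded. When oxygen is low the protein accumulates, pairs with ARNT and binds a short DNA core next to its target genes, which include most glycolytic enzymes and a set of genes for pH, iron, mitophagy and lipid storage. In macrophages and monocytes, inflammatory stimuli also raise HIF-1 alpha, and the level of its mRNA is not a measure of the protein.

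The core of a HIF site is ACGTG, and GCGTG is the accepted variant. Both were searched on both strands in the windows of 250 bases before to 50 bases after each start that the RefSeq promoter table lists (build GRCm38.p6). Windows were listed for 31 of the 33 members, not for Ndrg1 and Bhlhe40. ACGTG was present at 23 of those 31 genes (74.2%), against 21.8% of 27025 genes in the table, and either core at 29 of 31 (93.5%), against 46.7%. A gene counted if any of its windows held the core, and genes differ in their number of windows. By window, ACGTG was in 26 of 45 member windows (57.8%), against 19.6% of 32851. These shares were not matched for base composition, and a match is a run of letters and not a binding site. Of the glycolytic genes, 11 of 16 held ACGTG, and of the other HIF targets with a window, 11 of 14. The windows of 6 members are printed because the comparisons turn on them: Pfkp, Slc16a3 and Ankrd37, which were higher in NTT and RTT_PTGS12KO tumours, and Hilpda, Ddit4 and Mxi1, which were not. They run 5′ to 3′ along the strand of the gene, and capitals mark each ACGTG or GCGTG core read on that strand or, as CACGT or CACGC, on the other. They lie at chr13:6648722-6649021 on the minus strand (Pfkp), chr11:120948817-120949116 on the plus strand (Slc16a3), chr8:45999801-46000100 on the minus strand (Ankrd37), chr6:29272376-29272675 on the plus strand (Hilpda), chr10:59951721-59952020 on the minus strand (Ddit4) and chr19:53329163-53329462 on the plus strand (Mxi1).
Pfkp: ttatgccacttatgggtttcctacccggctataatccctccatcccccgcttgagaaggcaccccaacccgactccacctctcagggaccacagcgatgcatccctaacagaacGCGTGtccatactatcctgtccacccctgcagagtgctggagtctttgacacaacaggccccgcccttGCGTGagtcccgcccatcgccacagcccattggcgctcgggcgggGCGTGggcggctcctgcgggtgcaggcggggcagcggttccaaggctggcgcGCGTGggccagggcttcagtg
Slc16a3: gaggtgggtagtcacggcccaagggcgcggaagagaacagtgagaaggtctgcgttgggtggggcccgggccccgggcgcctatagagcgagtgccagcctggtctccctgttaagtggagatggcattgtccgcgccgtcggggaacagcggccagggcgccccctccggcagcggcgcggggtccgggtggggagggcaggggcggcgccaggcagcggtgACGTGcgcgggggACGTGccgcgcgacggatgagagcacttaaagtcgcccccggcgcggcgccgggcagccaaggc
Ankrd37: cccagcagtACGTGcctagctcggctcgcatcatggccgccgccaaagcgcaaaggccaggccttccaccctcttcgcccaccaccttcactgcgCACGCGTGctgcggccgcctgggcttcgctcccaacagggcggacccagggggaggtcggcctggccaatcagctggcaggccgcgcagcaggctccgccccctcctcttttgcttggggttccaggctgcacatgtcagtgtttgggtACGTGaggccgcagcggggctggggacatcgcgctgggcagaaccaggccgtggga
Hilpda: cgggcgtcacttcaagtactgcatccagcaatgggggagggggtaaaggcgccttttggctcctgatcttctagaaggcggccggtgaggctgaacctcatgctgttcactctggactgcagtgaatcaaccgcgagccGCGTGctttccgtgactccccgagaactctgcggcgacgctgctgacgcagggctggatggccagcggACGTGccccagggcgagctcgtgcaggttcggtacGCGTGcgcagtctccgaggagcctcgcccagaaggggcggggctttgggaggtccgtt
Ddit4: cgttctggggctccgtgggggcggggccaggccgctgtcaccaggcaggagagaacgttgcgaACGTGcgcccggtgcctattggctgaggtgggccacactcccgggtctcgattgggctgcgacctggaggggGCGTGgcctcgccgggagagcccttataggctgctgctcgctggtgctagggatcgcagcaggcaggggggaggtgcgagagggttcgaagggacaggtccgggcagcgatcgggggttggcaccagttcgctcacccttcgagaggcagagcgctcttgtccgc
Mxi1: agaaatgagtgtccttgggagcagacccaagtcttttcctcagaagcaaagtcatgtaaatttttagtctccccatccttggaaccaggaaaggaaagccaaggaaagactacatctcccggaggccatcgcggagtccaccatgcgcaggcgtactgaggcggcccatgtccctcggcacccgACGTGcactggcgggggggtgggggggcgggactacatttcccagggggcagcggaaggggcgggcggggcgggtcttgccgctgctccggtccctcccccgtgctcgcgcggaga
Both groups of 3 hold cores. Pfkp holds no ACGTG and 4 GCGTG, Slc16a3 holds 2 ACGTG, and Ankrd37 holds 2 of each, its GCGTG pair overlapping on opposite strands. Hilpda holds 1 ACGTG and 2 GCGTG, Ddit4 holds 1 of each, and Mxi1 holds 1 ACGTG. The table lists other starts for 2 of these genes: another Hilpda window holds 1 GCGTG and no ACGTG, and of 2 other Mxi1 windows 1 holds 1 ACGTG and 1 holds neither core.

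Depth and composition differed between the tumours. The matrix held 6836 to 10296 cells per tumour, with 69332486 to 146829369 UMIs in all and a median of 7292.5 UMIs per cell in NTT against 12219 to 13280 in the other 3 tumours. At least 1 UMI of Ptprc, which encodes CD45, was found in 90.2% to 94.4% of cells. Cell types are those the authors assigned from the expression of the same cells, so a difference between types is a description. Macrophages are here the types TAM_C1q, TAM_Spp1, TAM_cycling, TAM_H2Ab1 and Ctsk_Macro together, and monocytes are Monocyte_1, Monocyte_3 and Infl_Mono; the small type named Macro stands on its own. NTT held 6619 monocytes and 308 macrophages, RTT 522 and 6734, RTT_ROSA26 144 and 5993, and RTT_PTGS12KO 4015 and 5207. The NTT macrophages were not the same kinds as those of the resistant tumours: 192 of 308 were TAM_H2Ab1 and 79 TAM_cycling, whereas 3412 of the 6734 in RTT were TAM_C1q and 2057 TAM_Spp1. All 4 tumours were tagged and run together in each of 3 loads, so the tumours of a load shared its free RNA, and 75 barcode sequences occurred in cells of more than 1 tumour but never repeatedly within a load.

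Levels are UMIs summed over the cells of a type and tumour, per 1000000 UMIs (CPM). A ratio is the log2 ratio of CPM + 1, and the range in brackets after it is its 95% counting interval, which covers sampling of molecules only and says nothing of how tumours of a group vary. A gene is called higher or lower where its ratio passed 1.5-fold and the counting interval left out 0, among genes with at least 10 CPM on average. In macrophages all 16 glycolytic genes, 13 of 16 other HIF targets and Hif1a passed that minimum, and Adm, Egln3 and P4ha2 did not. NTT was compared with RTT (the therapy contrast), and RTT_PTGS12KO with RTT_ROSA26 (the knockout contrast). A control comparison set RTT_ROSA26 against RTT, 2 resistant tumours that both keep Ptgs1 and Ptgs2. It shares a tumour with each contrast, and the contrasts share none with each other.

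In macrophages the glycolytic genes were higher in the NTT tumour than in RTT, and higher in RTT_PTGS12KO than in RTT_ROSA26. Their median ratio was 0.38 (0.20 to 0.47) in the therapy contrast, with 14 of 16 genes above 0, and 0.49 (0.48 to 0.51) in the knockout contrast, with 16 of 16 above 0. Over all tested genes the medians were 0.00 and -0.08. In the control comparison the glycolytic median was -0.14, with 2 of 16 above 0, and that of all genes 0.06. Called higher in NTT were 3 of 16 (Hk1, Pfkp and Pfkfb3), where 9.35% of all tested genes were called higher and 9.18% lower. Called higher in RTT_PTGS12KO were 6 of 16 (Slc2a1, Hk1, Pfkp, Tpi1, Pgk1 and Slc16a3), against 4.65% of all genes higher and 3.53% lower. No glycolytic gene was called in either direction between RTT_ROSA26 and RTT, where 3.34% of genes were higher and 2.85% lower. Across the 3 loads the NTT median ran from 0.13 to 0.48. The number of members called higher in NTT macrophages, 3 of all 33, was 13 when TAM_cycling and TAM_H2Ab1 were weighted equally and 12 when cells were assigned by detected markers.

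**Figure D1:**
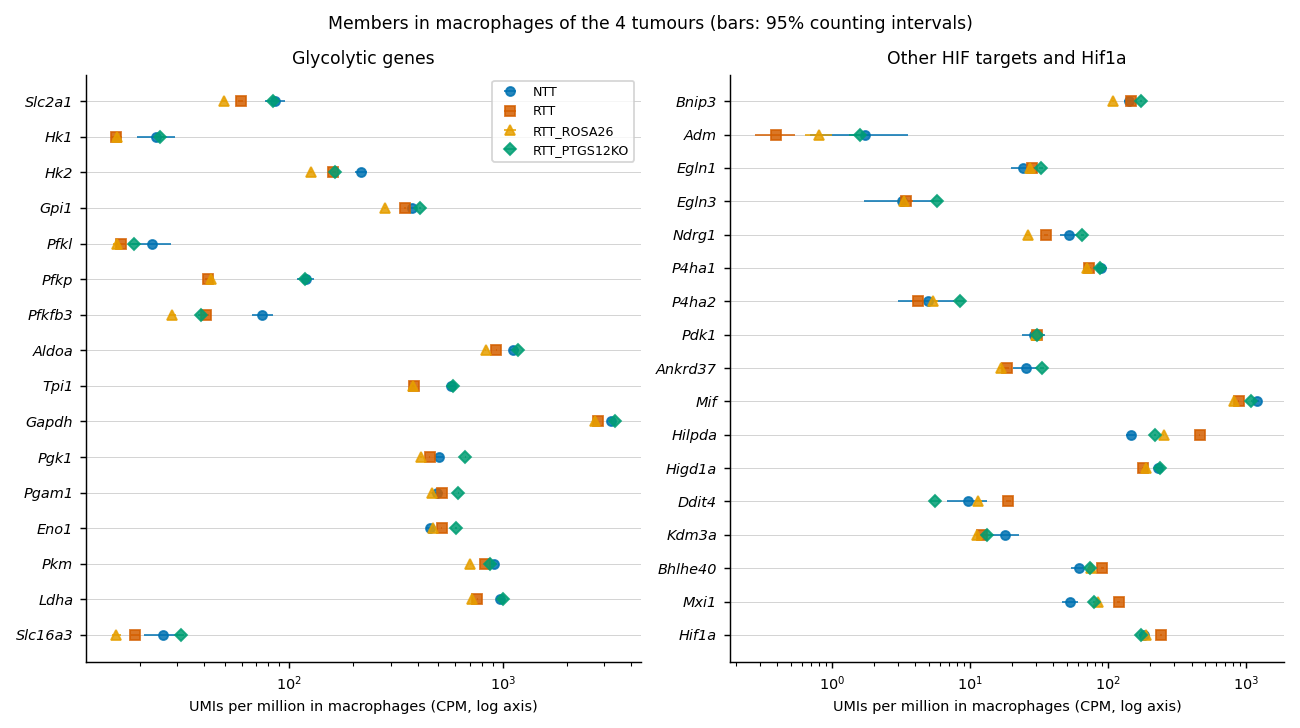
Level in CPM (log axis) of the 33 members in macrophages of each tumour, glycolytic genes on the left and other HIF targets with Hif1a on the right; bars are 95% counting intervals. Pfkp stood near 120 CPM in NTT and RTT_PTGS12KO and near 42 in RTT and RTT_ROSA26, while Hilpda was highest in RTT.

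The glycolytic gene that differed most in both contrasts was Pfkp, the platelet-type subunit of phosphofructokinase, which catalyses the committed step of glycolysis. It stood at 119.8 CPM in NTT, 119 in RTT_PTGS12KO, 43.0 in RTT_ROSA26 and 41.8 in RTT. RTT_ROSA26 and RTT lay within 0.04 of each other on the log2 scale, NTT exceeded RTT by 1.50 (1.36 to 1.63) and RTT_PTGS12KO exceeded RTT_ROSA26 by 1.45 (1.40 to 1.50), or 2.83-fold and 2.73-fold. The liver-type subunit, Pfkl, was read at 22.9 CPM in NTT, 18.8 in RTT_PTGS12KO, 15.7 in RTT_ROSA26 and 16.3 in RTT and was not called. Pfkfb3 makes fructose 2,6-bisphosphate, the activator of phosphofructokinase, and was high in NTT alone: 75.0 CPM in NTT, 38.7 in RTT_PTGS12KO, 28.4 in RTT_ROSA26 and 40.9 in RTT.

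At the entry of the pathway, Slc2a1, the glucose transporter GLUT1, was read at 85.9 CPM in NTT, 84.4 in RTT_PTGS12KO, 49.7 in RTT_ROSA26 and 59.4 in RTT. Its ratio was 0.75 (0.70 to 0.80) in the knockout contrast and 0.52 (0.37 to 0.68) in the therapy contrast, which missed 1.5-fold, and the loads of the latter spanned -0.07 to 0.72. Hexokinases trap glucose by phosphorylating it. Hk1 stood at 23.9 CPM in NTT, 24.8 in RTT_PTGS12KO, 15.7 in RTT_ROSA26 and 15.4 in RTT, so that RTT and RTT_ROSA26 were low and the other pair high, whereas Hk2 was read at 218 CPM in NTT, 163 in RTT_PTGS12KO, 126 in RTT_ROSA26 and 161 in RTT and was called in neither contrast. Gpi1, which interconverts glucose and fructose 6-phosphates, differed by 0.54 (0.52 to 0.56) between RTT_PTGS12KO and RTT_ROSA26 and by only 0.12 (0.04 to 0.19) between NTT and RTT.

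Further down the pathway the contrasts parted. Tpi1, which interconverts the triose phosphates, was at 576 CPM in NTT, 583 in RTT_PTGS12KO, 380.2 in RTT_ROSA26 and 385 in RTT, and its ratios were 0.58 (0.52 to 0.64) and 0.61 (0.60 to 0.63). Pgk1, the first ATP-forming enzyme, was at 506 CPM in NTT, 669 in RTT_PTGS12KO, 416 in RTT_ROSA26 and 455 in RTT, with 0.68 (0.67 to 0.70) for the knockout contrast and 0.15 (0.09 to 0.22) for the therapy contrast. Pgam1 and Eno1, the mutase and enolase that follow it, were slightly lower in NTT than in RTT, with ratios of -0.09 (-0.15 to -0.02) and -0.18 (-0.24 to -0.11), and higher in RTT_PTGS12KO than in RTT_ROSA26, with ratios of 0.40 (0.39 to 0.42) and 0.36 (0.34 to 0.37). Aldoa, Gapdh, Pkm and Ldha, the aldolase, the triose dehydrogenase, pyruvate kinase and lactate dehydrogenase A, had ratios of 0.13 to 0.36 for NTT and 0.31 to 0.50 for the knockout, all short of 1.5-fold. Slc16a3, the lactate exporter MCT4, was at 25.6 CPM in NTT, 31.1 in RTT_PTGS12KO, 15.5 in RTT_ROSA26 and 19.1 in RTT: its ratio was 0.96 (0.87 to 1.05) for the knockout, and 0.40 (0.12 to 0.68) for NTT, where the loads spanned -0.40 to 0.69.

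In monocytes the glycolytic median was 0.34 (0.27 to 0.44) in the therapy contrast, with 16 of 16 genes above 0, and 0.53 (0.24 to 0.67) in the knockout contrast, with 14 of 16 above 0; the all-gene medians were 0.03 and 0.00. Called higher in NTT were 5 genes, Hk1, Hk2, Pfkl, Tpi1 and Slc16a3, where 5.86% of all genes were called higher and 3.63% lower. Called higher in RTT_PTGS12KO were 7 genes, Hk1, Gpi1, Aldoa, Tpi1, Pgk1, Ldha and Slc16a3, where 5.47% were higher and 5.90% lower. None was called between RTT_ROSA26 and RTT, where 5.08% were higher and 4.97% lower. The RTT_ROSA26 value rests on 144 monocytes, and its intervals were the widest. The pools also differ in kind: 86 of those 144 were Infl_Mono and 54 Monocyte_1, whereas 3347 of 4015 in RTT_PTGS12KO were Monocyte_1. Within Monocyte_1 the knockout median was 0.24, with no glycolytic gene called, and within Infl_Mono 0.33, with 3 called, both below the pooled 0.53. The summed level of 8 macrophage markers in monocytes was 5774 CPM in NTT, 6813 in RTT_PTGS12KO, 9715 in RTT_ROSA26 and 15916 in RTT, lower in NTT and RTT_PTGS12KO. That of 7 monocyte markers was 12227, 9315, 9617 and 6724 CPM in the same order. The 2 proliferation genes past the minimum had a median of -0.46 in the therapy contrast. In the knockout contrast it was 0.96, with both called higher. The part of these lists in the ratios was not tested. Of all 33 members 11 were called higher in RTT_PTGS12KO monocytes, but 3 with cell types weighted equally and 4 with cells assigned by markers. Slc16a3 stood at 52.5 CPM in NTT, 46.3 in RTT_PTGS12KO, 28.9 in RTT_ROSA26 and 27.3 in RTT, and Tpi1 at 732 CPM in NTT, 697 in RTT_PTGS12KO, 451 in RTT_ROSA26 and 479 in RTT. In both genes NTT and RTT_PTGS12KO were above RTT and RTT_ROSA26. Pfkp, by contrast, was at 154 CPM in NTT, 194 in RTT_PTGS12KO, 142 in RTT_ROSA26 and 121 in RTT in monocytes, a narrower range than in macrophages, and was not called in either contrast.

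Set side by side, 14 of 16 glycolytic genes were above 0 in both contrasts in macrophages and 14 of 16 in monocytes, where 25.5% and 30.7% of all tested genes were. Past 1.5-fold in both contrasts were Hk1 and Pfkp in macrophages, against 3.55% of all genes, and Hk1, Tpi1 and Slc16a3 in monocytes, against 1.71%.

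**Figure D2:**
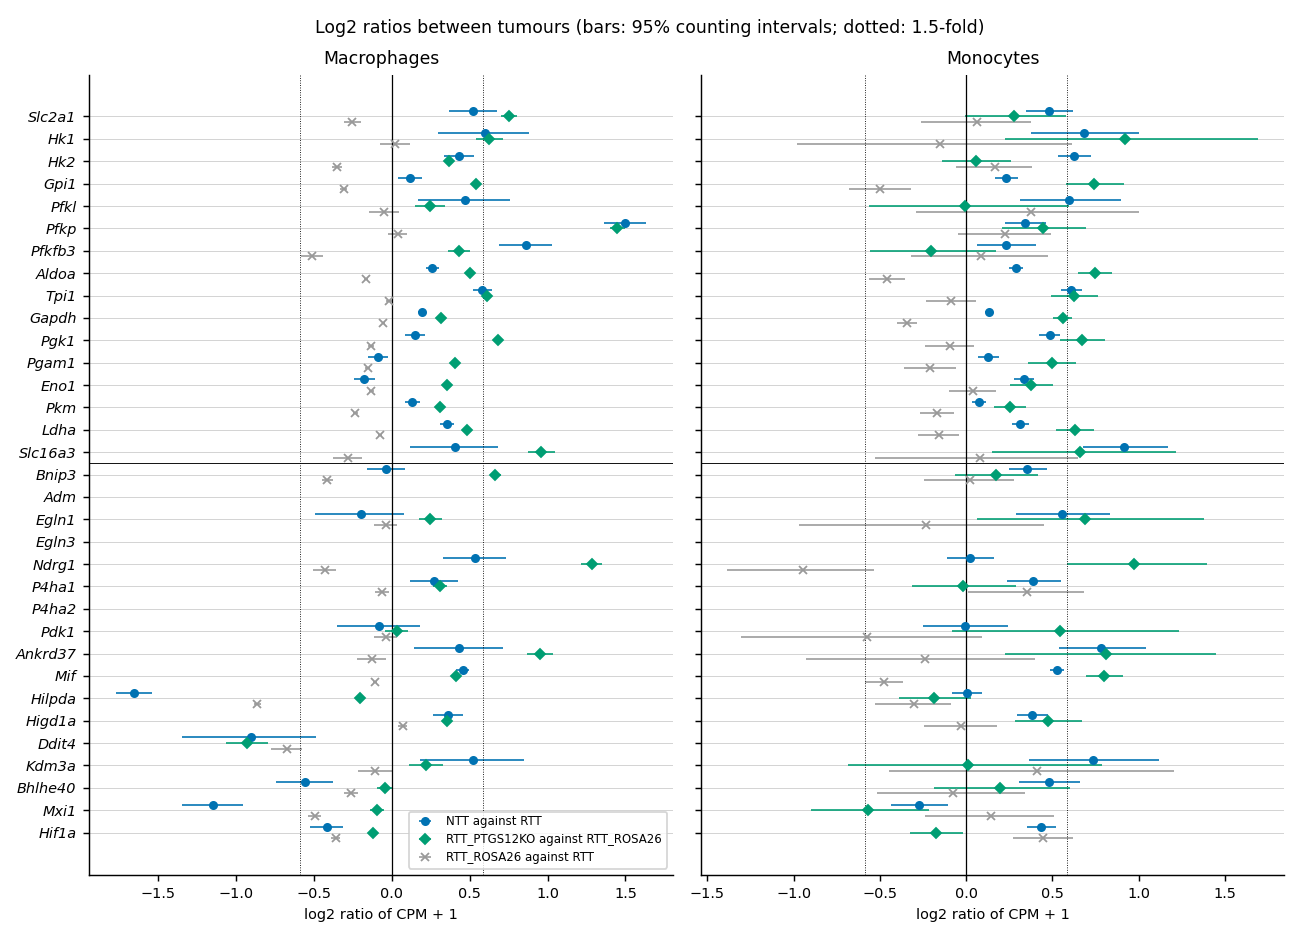
Log2 ratios of CPM + 1 for each member in macrophages (left) and monocytes (right), with 95% counting intervals as bars and dotted lines at 1.5-fold; members under the 10 CPM minimum are left blank. The glycolytic genes above the horizontal line lay mostly to the right of 0 in the therapy and knockout contrasts, and near or left of 0 in the control comparison.

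The other HIF targets did not share 1 direction. In macrophages their median was -0.04 (-0.16 to 0.18) in the therapy contrast, with 6 of 13 above 0, and 0.25 (0.17 to 0.33) in the knockout contrast, with 9 of 13 above 0. Between RTT_ROSA26 and RTT it was -0.13, with 1 of 13 above 0, but 0.0194 with cell types weighted equally. The all-gene medians were 0.00, -0.08 and 0.06. Called in NTT were none higher and 3 lower, Hilpda, Ddit4 and Mxi1, against 9.35% of all genes higher and 9.18% lower. Called in RTT_PTGS12KO were Bnip3, Ndrg1 and Ankrd37 higher and Ddit4 lower, against 4.65% and 3.53%, and called in RTT_ROSA26 were Hilpda and Ddit4 lower, against 2.85%. The NTT value depended on which macrophages were pooled: within TAM_H2Ab1 the median was 0.44 (-0.01 to 0.77) and within TAM_cycling 0.43 (0.00 to 0.64), both on 12 genes.

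Ndrg1, a stress-responsive gene of the N-myc downstream regulated family, was read in macrophages at 51.7 CPM in NTT, 64.7 in RTT_PTGS12KO, 26.0 in RTT_ROSA26 and 35.4 in RTT. RTT_PTGS12KO was the highest and RTT_ROSA26 the lowest, a ratio of 1.28 (1.22 to 1.35) or 2.43-fold, and part of it lay between the 2 resistant tumours, which differed by -0.43 (-0.50 to -0.36). In monocytes, at 101 CPM in NTT, 101 in RTT_PTGS12KO, 50.9 in RTT_ROSA26 and 99.1 in RTT, it was RTT_ROSA26 that stood apart, with the other 3 tumours between 99.1 and 101 CPM. Ankrd37, a small ankyrin-repeat protein, was at 25.1 CPM in NTT, 33.1 in RTT_PTGS12KO, 16.7 in RTT_ROSA26 and 18.3 in RTT in macrophages and 45.7 CPM in NTT, 39.2 in RTT_PTGS12KO, 21.9 in RTT_ROSA26 and 26.1 in RTT in monocytes. It was above 1.5-fold in both contrasts in monocytes, by 0.78 (0.54 to 1.04) and 0.81 (0.23 to 1.45). Bnip3, a mitophagy receptor, was called for the knockout alone, by 0.66 (0.63 to 0.70), from 141 CPM in NTT, 172 in RTT_PTGS12KO, 108 in RTT_ROSA26 and 145 in RTT; here RTT was as high as NTT. Mif, a cytokine that HIF-1 induces, was at 1202 CPM in NTT, 1082 in RTT_PTGS12KO, 814 in RTT_ROSA26 and 876 in RTT, with ratios of 0.46 (0.41 to 0.50) and 0.41 (0.40 to 0.42). Higd1a, a mitochondrial inner-membrane protein, had nearly equal ratios of 0.36 (0.27 to 0.46) and 0.35 (0.32 to 0.38).

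Hilpda, which holds lipid droplets by inhibiting the lipase ATGL, went the other way. It was at 145 CPM in NTT, 218 in RTT_PTGS12KO, 251 in RTT_ROSA26 and 457 in RTT, so that RTT was above the other 3 tumours and the therapy ratio was -1.65 (-1.77 to -1.53), or 3.14-fold lower. The control-guide tumour was itself -0.86 (-0.89 to -0.84) against RTT, so the 2 resistant tumours were themselves past 1.5-fold apart. Between RTT_PTGS12KO and RTT_ROSA26 it was -0.21 (-0.23 to -0.18). Mxi1, a MAX-binding antagonist of MYC, showed the same order, 52.9 CPM in NTT, 78.6 in RTT_PTGS12KO, 83.8 in RTT_ROSA26 and 118 in RTT, with -1.15 (-1.35 to -0.96) for the therapy contrast and -0.09 (-0.14 to -0.05) for the knockout. Ddit4, an inhibitor of mTORC1 signalling also known as REDD1, was low throughout, at 9.60 CPM in NTT, 5.54 in RTT_PTGS12KO, 11.4 in RTT_ROSA26 and 18.8 in RTT, and was called lower in both contrasts and in the control comparison. Those calls depended on the processing: with CPM + 10 the therapy ratio of Ddit4 was -0.56, the knockout ratio -0.46 and the control ratio -0.43, all short of 1.5-fold, and with types weighted equally the therapy ratio was 0.0527 and the control ratio -0.35. Its mean passed 10 CPM only through the level in RTT. Bhlhe40, a transcriptional repressor, was at 61.3 CPM in NTT, 73.0 in RTT_PTGS12KO, 75.3 in RTT_ROSA26 and 90.5 in RTT and was not called.

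An oxygen sensor, a collagen and a pyruvate enzyme and a histone demethylase were not called in macrophages. Egln1, the prolyl hydroxylase PHD2, was at 24.1 CPM in NTT, 32.4 in RTT_PTGS12KO, 27.1 in RTT_ROSA26 and 27.8 in RTT in macrophages. P4ha1, a collagen prolyl hydroxylase, had ratios of 0.27 (0.12 to 0.43) and 0.31 (0.27 to 0.36), and Kdm3a, a histone demethylase, 0.52 (0.18 to 0.85) and 0.22 (0.11 to 0.33). Pdk1, a kinase that inhibits pyruvate dehydrogenase and with it the conversion of pyruvate to acetyl-CoA, was at 28.8 CPM in NTT, 30.3 in RTT_PTGS12KO, 29.6 in RTT_ROSA26 and 30.5 in RTT. In monocytes Kdm3a was called higher in NTT (0.73 (0.37 to 1.12)) and Egln1 higher in RTT_PTGS12KO (0.69 (0.06 to 1.38)). The 3 members below the minimum were Egln3, the hydroxylase PHD3, at 3.20 CPM in NTT, 5.76 in RTT_PTGS12KO, 3.30 in RTT_ROSA26 and 3.44 in RTT, P4ha2 at 4.92 CPM in NTT, 8.42 in RTT_PTGS12KO, 5.38 in RTT_ROSA26 and 4.14 in RTT and Adm, the vasodilator peptide adrenomedullin, at 1.72 CPM in NTT, 1.58 in RTT_PTGS12KO, 0.803 in RTT_ROSA26 and 0.389 in RTT.

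In monocytes the other HIF targets had a median of 0.39 (0.27 to 0.51) in the therapy contrast, with 10 of 12 above 0, and 0.33 (-0.07 to 0.73) in the knockout contrast, with 9 of 12 above 0. The all-gene medians were 0.03 and 0.00. Called higher were Ankrd37 and Kdm3a in NTT, against 5.86% of all genes, and Egln1, Ndrg1, Ankrd37 and Mif in RTT_PTGS12KO, against 5.47%. Between RTT_ROSA26 and RTT the median was -0.15 and Ndrg1 was called lower, against 4.97% of all genes. For Hilpda the ratio of NTT to RTT was 0.00 (-0.08 to 0.09), from 243 CPM in NTT, 173 in RTT_PTGS12KO, 197 in RTT_ROSA26 and 243 in RTT.

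Hif1a itself followed the glycolytic genes in some comparisons and not in others. In macrophages it was at 181 CPM in NTT, 173 in RTT_PTGS12KO, 188 in RTT_ROSA26 and 241 in RTT, so NTT was below RTT by -0.42 (-0.52 to -0.31) and RTT_PTGS12KO differed from RTT_ROSA26 by -0.12 (-0.15 to -0.09). In monocytes the order was another one, 348 CPM in NTT, 311 in RTT_PTGS12KO, 351 in RTT_ROSA26 and 258 in RTT, with 0.43 (0.35 to 0.52) for NTT and -0.17 (-0.33 to -0.02) for the knockout. No ratio of Hif1a passed 1.5-fold in either class. Thus it went against the glycolytic median in macrophages in both contrasts, with it in NTT monocytes and against it in RTT_PTGS12KO monocytes. Within single types Hif1a was lower in NTT in 4 of 6 and called higher in 2, with the largest ratio, 0.60, in Monocyte_1. Of all genes 7.25% to 10.3% were called higher in those types. In RTT_PTGS12KO it was called lower in 1 of 9 types, TAM_Spp1, at 219 against 353 CPM, where 3.10% of all genes were.

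Markers moved with these comparisons, and their part in the ratios was not tested. The summed level of 8 macrophage markers in macrophages was 18262 CPM in NTT, 17242 in RTT_PTGS12KO, 27444 in RTT_ROSA26 and 35065 in RTT, and that of 7 monocyte markers 5090, 1678, 455 and 604 CPM in the same order; every marker was detected in every tumour. Thus the 2 tumours with the higher glycolytic levels were also the 2 with the lower macrophage and higher monocyte marker sums. Of 13 genes induced by tissue handling, the summed level in macrophages was 4124, 4177, 3350 and 4124 CPM in that order, and their median ratio was -0.24 in the therapy contrast, 0.39 in the knockout contrast and -0.30 in the control comparison. For 8 proliferation genes those medians were 0.08, 0.14 and 0.81.

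Within single cell types the glycolytic median was above 0 in every therapy and knockout comparison, but the number of genes called varied widely. NTT could be compared with RTT in 6 types with at least 50 cells in both. The glycolytic median was 0.56 in TAM_cycling, 0.50 in TAM_H2Ab1, 0.41 in Infl_Mono and in cDC2 (type 2 conventional dendritic cells), 0.39 in neutrophils and 0.34 in Monocyte_1, whereas the all-gene medians were between -0.08 and 0.04. Called higher were 7 of 16 in TAM_cycling (8.14% of all genes), 5 in TAM_H2Ab1 (7.25%) and 4 each in cDC2 (10.3%) and Monocyte_1 (7.68%). In Infl_Mono 3 were called (8.46%) and in neutrophils 2 (8.44%). Other lists differed within these types as well: in cDC2 all 8 proliferation genes were called lower in NTT, with a median of -2.51. Their summed level in cDC2 was 2035 CPM in RTT, against 661 in NTT, 796 in RTT_ROSA26 and 916 in RTT_PTGS12KO, so RTT stood apart. In Monocyte_1 the 13 handling genes had a median of 0.35 with 6 called higher, next to the glycolytic 0.34 with 4 called. The markers of the classes moved in all of these types. The summed macrophage markers were lower in NTT than in RTT in 6 of 6 types and the monocyte markers higher in 6 of 6: in TAM_cycling, which had the largest glycolytic median, 12331 against 29181 CPM and 6008 against 570 CPM. The macrophage sum was 5253 against 26280 CPM in Infl_Mono, 5345 against 19125 in neutrophils and 5939 against 12280 in Monocyte_1. Their part in the ratios was not tested. Tpi1 was called higher in NTT in 6 of 6 types, Ankrd37 in 5 of 6 and Slc16a3 in 4 of 6; of all genes, 8.46% were called higher in Infl_Mono, 7.68% in Monocyte_1, 8.44% in Neutro, 7.25% in TAM_H2Ab1, 8.14% in TAM_cycling and 10.3% in cDC2. Ankrd37 stood out in TAM_H2Ab1, at 25.3 CPM in NTT and 6.94 in RTT, and in cDC2, at 47.3 and 15.5 CPM. Hilpda was lower in NTT in 5 of 6 types, the largest gap being in cDC2 with 164.5 against 529.6 CPM, and higher in Monocyte_1, with 249 against 156 CPM. Ddit4 in TAM_H2Ab1 was at 11.2 CPM in NTT and 3.47 in RTT, opposite to its direction over all macrophages and below the minimum there.

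RTT_PTGS12KO could be compared with RTT_ROSA26 in 9 types. The glycolytic median was 0.92 in Macro, 0.57 in TAM_cycling and in cDC2, 0.54 in TAM_C1q, 0.34 in TAM_Spp1, 0.33 in Infl_Mono, 0.29 in neutrophils, 0.24 in Monocyte_1 and 0.23 in Ctsk_Macro. In Macro 12 of 15 glycolytic genes were called higher, where 9.68% of all genes were; that type held 130 cells in RTT_ROSA26 and 96 in RTT_PTGS12KO. The cells under that label differed in other genes too: macrophage markers summed to 37827 CPM in RTT_ROSA26 and 9814 in RTT_PTGS12KO, monocyte markers to 1902 and 5159, and the median ratio of 5 proliferation genes was 0.93. Over the 9 types, the macrophage sum was lower in RTT_PTGS12KO than in RTT_ROSA26 in 8 and the monocyte sum higher in 9. The macrophage sum went from 27400 CPM in RTT_ROSA26 to 14880 in RTT_PTGS12KO in TAM_cycling, from 37772 to 24537 in TAM_C1q, from 11044 to 3764 in Infl_Mono and from 20185 to 7845 in neutrophils. The 13 handling genes had knockout medians of 0.55 in TAM_cycling, 0.51 in neutrophils, 0.45 in Ctsk_Macro, 0.36 in TAM_C1q, 0.35 in Macro, 0.22 in Monocyte_1, -0.04 in Infl_Mono, -0.14 in TAM_Spp1 and -0.18 in cDC2, above the glycolytic median in neutrophils and Ctsk_Macro and just below it in TAM_cycling and Monocyte_1. In neutrophils 7 of 7 proliferation genes were called lower in RTT_PTGS12KO, with a median of -2.40. There the summed level of the 8 proliferation genes was 1020 CPM in RTT_ROSA26, against 334 in NTT, 315 in RTT and 423 in RTT_PTGS12KO. It was thus RTT_ROSA26 that stood apart. The part of these lists in the result was not tested. In TAM_C1q 7 of 16 were called (2.97% of all genes), in TAM_cycling 8 (5.62%), in cDC2 6 (8.59%), in Infl_Mono 3 (6.23%), in Neutro 3 (8.50%), in Ctsk_Macro 2 of 14 (8.46%), in TAM_Spp1 only Pfkp (2.92%) and in Monocyte_1 none (3.34%). Ndrg1 was called higher in 9 of 9 types, from 0.66 in Monocyte_1 to 1.94 in Macro. In TAM_C1q it was at 87.3 CPM in RTT_PTGS12KO, 33.9 in RTT_ROSA26 and 34.3 in RTT. Pfkp was called in 7 of 9 types, Ankrd37 in 6 of 8 and Hk1 in 6 of 9. Pfkp in TAM_cycling was at 132 CPM in NTT, 126 in RTT_PTGS12KO, 37.4 in RTT_ROSA26 and 36.1 in RTT, the same pattern as over all macrophages. Mxi1 was lower in RTT_PTGS12KO in 8 of 9 types and called lower in 3. These were Infl_Mono (5.89% of all genes), Macro (15.5%) and Monocyte_1 (4.73%). In Monocyte_1 Mxi1 was also called higher in RTT_ROSA26 than in RTT, so that call was against a high control.

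Between the 2 resistant tumours the glycolytic median stayed between -0.26 (Infl_Mono) and 0.25 (Myofibrobl) in 10 types. Ndrg1 was lower in RTT_ROSA26 than in RTT in 10 of 10 types, from -1.28 in Infl_Mono to -0.02 in TAM_C1q, and Hilpda in 9 of 10. Called lower in RTT_ROSA26 neutrophils were also Pfkl, Pfkp, Pfkfb3 and Ankrd37, where 7.63% of all genes were. So were Hk2 and Hilpda in Macro (3.85% of all genes), Pfkfb3 in Ctsk_Macro (6.57%) and Ankrd37 in Infl_Mono (6.86%). The knockout calls of Pfkp, Pfkfb3 and Ankrd37 in neutrophils, Ankrd37 in Infl_Mono, Pfkfb3 in Ctsk_Macro and Hk2 and Hilpda in Macro were thus against a low control. In Macro the glycolytic median of RTT_ROSA26 against RTT was -0.21, with 11 of 15 genes below 0. For Ndrg1 and Hilpda RTT_ROSA26 was below RTT in nearly all types, but Ndrg1 was called lower in 3 of 10 and Hilpda in 6 of 10. Of all genes 2.13% to 7.95% were called lower in those types. In TAM_C1q, where RTT_ROSA26 and RTT were level for Ndrg1, its knockout ratio was 1.34 (1.24 to 1.44).

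**Figure D3:**
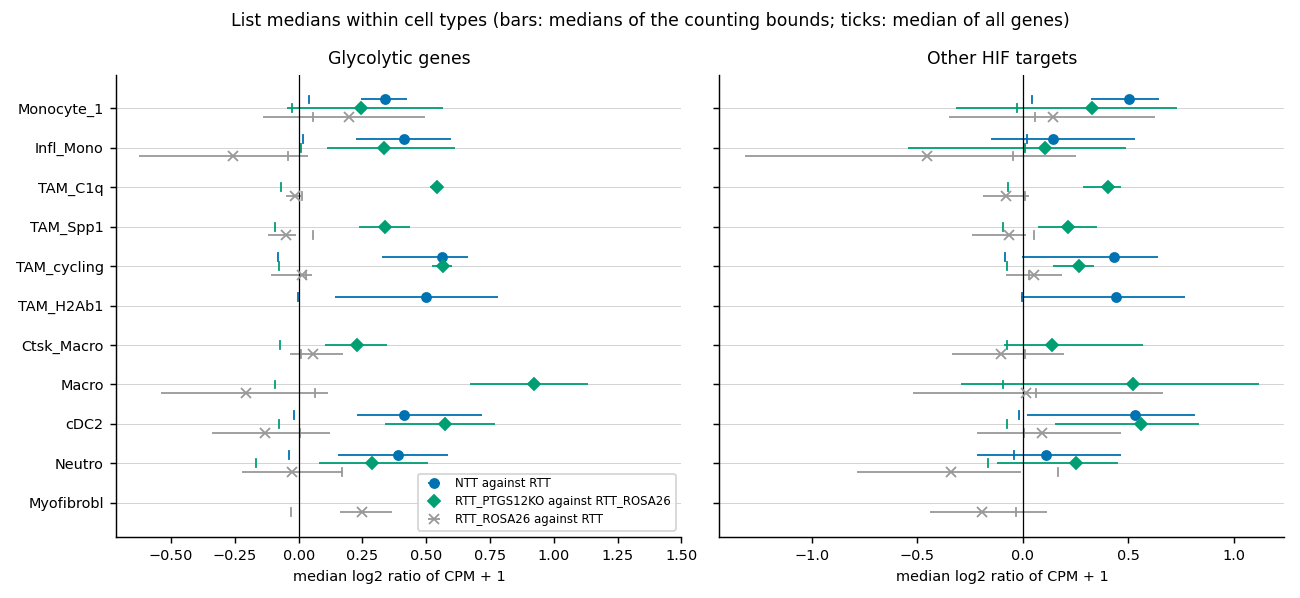
Median log2 ratio of CPM + 1 within each cell type for the glycolytic genes (left) and the other HIF targets (right); bars join the medians of the genes' counting bounds and short ticks mark the median of all genes in that type. The glycolytic medians of the therapy (NTT against RTT) and knockout contrasts lay between 0.23 and 0.92, right of all their ticks.

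**Figure D4:**
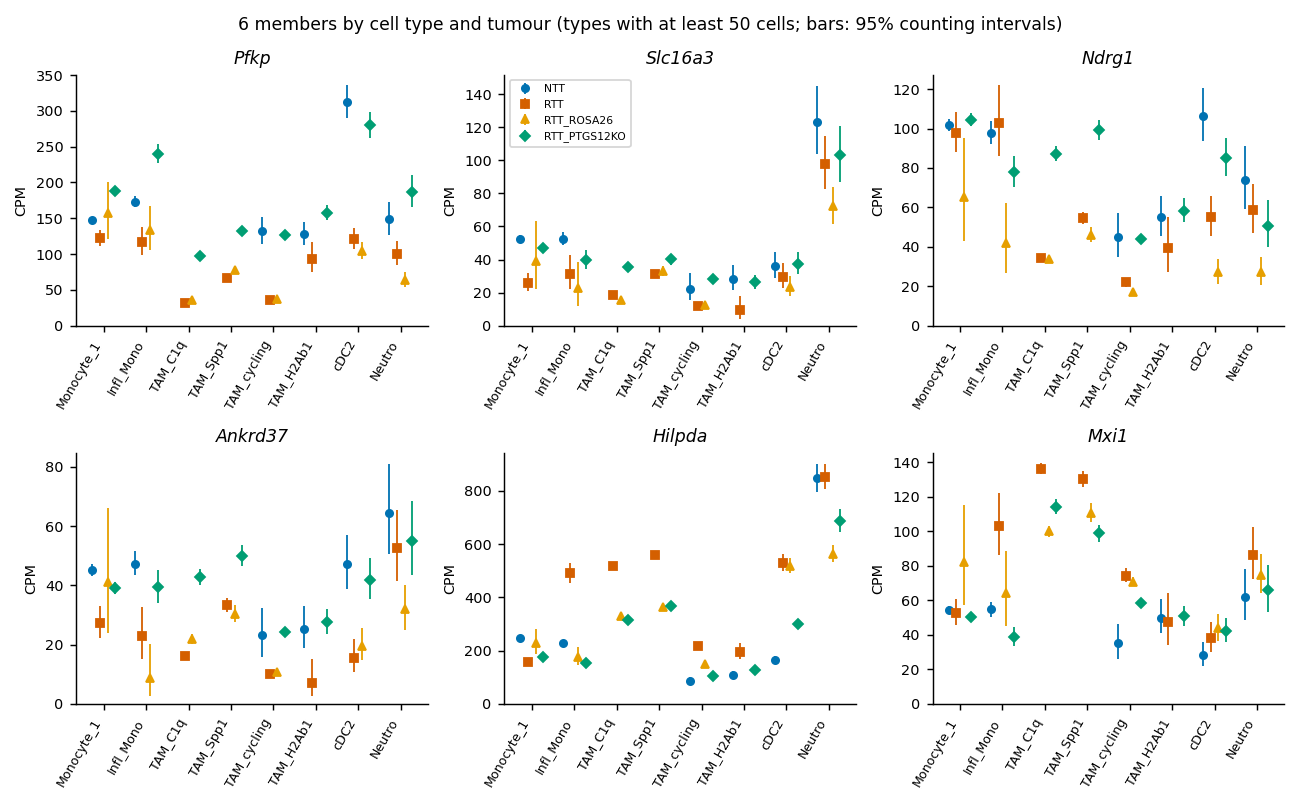
CPM of 6 members in 8 cell types (at least 50 cells in the tumour), each point 1 tumour with its 95% counting interval. In TAM_cycling and cDC2, NTT and RTT_PTGS12KO lay above RTT and RTT_ROSA26 for Pfkp, Ndrg1 and Ankrd37, and below them for Hilpda.

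Over all CD45+ cells the ratios mix level and composition. The glycolytic median was 0.61 (0.57 to 0.64) in the therapy contrast and 0.56 (0.53 to 0.60) in the knockout contrast, and 8 and 7 of 16 genes were called higher, against 11.7% and 6.97% of all genes; 15.1% and 6.29% were called lower. In the control comparison it was -0.15, with 2.62% of all genes higher and 3.35% lower and no glycolytic gene called. If each type had kept 1 level in both tumours and only its share of the UMIs had differed, the medians would have been 0.35 of the 0.61, 0.12 of the 0.56 and -0.11 of the -0.15. A type with under 50 cells in either tumour took its level from the pooled UMIs of both. For NTT against RTT these included TAM_C1q and TAM_Spp1, with 12 and 20 cells in NTT, so their level was nearly that of RTT. For the other HIF targets, shares alone gave -0.03 where 0.19 was observed for NTT and 0.01 where 0.23 was observed for the knockout. Ndrg1 differed between the contrasts in this respect: shares alone gave 1.01 of the 1.15 for NTT and 0.31 of the 1.44 for the knockout. For Hilpda shares alone gave -0.76 of the -0.84 for NTT, although within 4 types it was past 1.5-fold lower and in Monocyte_1 higher.

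TAM_Spp1 cells, macrophages named for osteopontin, were compared with TAM_C1q cells, named for complement C1q, inside the 3 tumours with at least 50 of each. The glycolytic genes were higher in TAM_Spp1 by a median of 0.40 in RTT, 0.34 in RTT_ROSA26 and 0.08 in RTT_PTGS12KO (mean 0.27 ± 0.17, SD, n = 3 samples), while the all-gene medians were -0.13, -0.10 and -0.13. In all 3 tumours 13 of 16 were higher, as were 20.2% of 6678 genes. Among the members past the minimum, the largest mean differences were 0.94 ± 0.12 for Bhlhe40, 0.85 ± 0.35 for Pfkp, 0.74 ± 0.36 for Slc2a1, 0.71 ± 0.21 for Ddit4 and 0.64 ± 0.44 for Slc16a3 (SD, n = 3 samples), and Hif1a was higher by 0.50 ± 0.32. For the other HIF targets the median was 0.16, 0.22 and 0.10, with 7 of 13 higher in all 3 tumours. The mean of these medians depended on the processing: with cells assigned by detected markers it was 0.46 for the glycolytic genes in place of 0.27, and for the other HIF targets 0.35 with markers and 0.31 with TMM factors in place of 0.16. The signed difference was lowest in RTT_PTGS12KO for 16 of 16 glycolytic genes and 10 of 13 other HIF targets, against 37.5% of all genes. It was below 0 there for Pfkfb3 (-0.36), Tpi1 (-0.17) and Pgam1 (-0.18), which were further from 0 in that tumour than in the others. Slc2a1 shows how: TAM_Spp1 held 105.0, 102 and 129 CPM in RTT, RTT_ROSA26 and RTT_PTGS12KO, and TAM_C1q 51.6, 55.0 and 102.5 CPM, so that both types were higher in the knockout tumour, TAM_C1q by more. Beside this, the handling genes differed by 0.49, 0.63 and 0.13 between the 2 types, and 4 proliferation genes by -1.52, -1.54 and -0.95. The markers that name the types also lay closer in RTT_PTGS12KO: the summed TAM_Spp1 markers were 22771 CPM in TAM_Spp1 and 11059 in TAM_C1q in RTT, 27350 and 11925 in RTT_ROSA26, and 23417 and 15537 in RTT_PTGS12KO. The summed TAM_C1q markers were 21881 and 55733 CPM, 17771 and 44512, and 15299 and 28635 in these tumours in turn. The part of these lists in the difference was not tested.

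**Figure D5:**
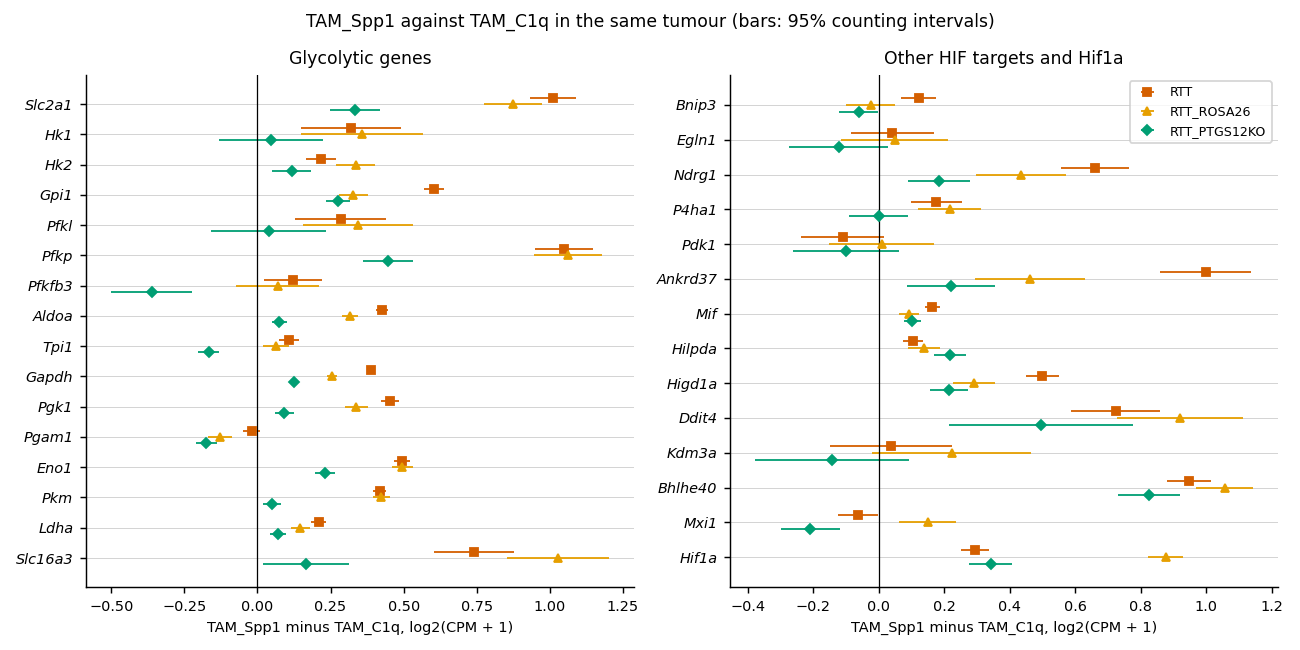
Difference of TAM_Spp1 and TAM_C1q within each tumour, in log2(CPM + 1), for the members past the 10 CPM minimum; bars are 95% counting intervals. The RTT_PTGS12KO points were the furthest left for all 16 glycolytic genes, and those of Bhlhe40 stayed between 0.82 and 1.06 in all 3 tumours.

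Across cell types, the mean log2 level of the glycolytic genes was highest in Monocyte_1, at 8.16 (7.91 to 8.31 over 4 tumours), followed by neutrophils at 8.06 (7.76 to 8.32), TAM_Spp1 at 8.01 (7.89 to 8.18, in 3 tumours) and Infl_Mono at 7.94 (7.61 to 8.27), whose ranges overlapped. Within tumours Monocyte_1 was the highest in RTT_PTGS12KO and RTT_ROSA26, neutrophils in NTT and TAM_Spp1 in RTT. The lowest means were those of Ctsk_Macro, at 6.94 (6.81 to 7.18), Myofibrobl, at 6.97 (6.92 to 7.02), and Macro, at 7.12 (6.74 to 7.66), whose ranges also overlapped. Means cover the tumours in which a type had at least 50 cells, so they rest on different sets of tumours. The other HIF targets ordered the types differently, with neutrophils at 5.72, TAM_Spp1 at 5.68, TAM_C1q at 5.50 and Myofibrobl at 5.49 on top and Ctsk_Macro at 4.50 lowest. Single members had their own peaks. Hilpda reached 852 CPM in RTT neutrophils and was lowest, at 45.1 CPM, in Macro of RTT_ROSA26. Slc16a3 ranged from 123 CPM in NTT neutrophils to 0.829 CPM in Myofibrobl of RTT_ROSA26, the widest range of the members. Bhlhe40 peaked in DC3 of NTT at 624 CPM, Hif1a in Monocyte_1 of NTT at 357.5 CPM, and Egln3 in NTT neutrophils at 47.3 CPM. P4ha2 and Adm were highest in Myofibrobl of RTT, at 24.6 and 8.44 CPM. Pgk1 peaked in Myofibrobl of RTT_ROSA26, at 919 CPM.

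Over the 42 combinations of type and tumour with at least 50 cells, Tpi1 (r = 0.86), Gapdh (0.85), Pfkl (0.83) and Slc2a1 (0.82) followed the mean of the other glycolytic genes most closely, and Hk1 least (0.10). Among the other HIF targets this correlation was 0.74 for Bnip3, 0.73 for Ankrd37 and 0.65 for Ndrg1, and 0.35 for Hilpda, 0.17 for Mxi1 and -0.17 for Bhlhe40; for Hif1a it was 0.55. Outside the members, the gene most like the mean of the other HIF targets was Ero1l, an endoplasmic reticulum oxidase (0.85), before Vegfa, the endothelial growth factor (0.75), and Ptgs2 (0.71). The combinations share tumours, loads and depth, so these are descriptions.

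The share of cells in which at least 5 of the 16 other HIF targets were seen was counted after thinning each cell to 3000 UMIs. Its intervals cover the sampling of cells of 1 library only, and say nothing of how samples of a group vary. Among macrophages it was 15.7% (11.8 to 20.3, exact binomial 95% interval) in NTT, 20.4% (19.4 to 21.6) in RTT_PTGS12KO, 13.3% (12.5 to 14.2) in RTT_ROSA26 and 18.5% (17.6 to 19.5) in RTT. Among monocytes it was 23.2% (22.1 to 24.2), 18.8% (17.6 to 20.0), 10.1% (5.66 to 16.4) and 13.3% (10.5 to 16.5) for these tumours in turn. Thinning left out 2 to 38 macrophages and 6 to 162 monocytes per tumour. Without thinning the shares were 61.7%, 79.2%, 70.2% and 75.2% of macrophages and 56.1%, 59.7%, 27.1% and 56.9% of monocytes. The value of RTT_ROSA26 was the lowest of these samples in monocytes on both counts, and in macrophages only after thinning. Its monocyte interval overlapped that of RTT, and its macrophage interval lay inside that of NTT. No cell type is known to lack these genes, so no level for free RNA could be set beside the shares.

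Genes of the same pathways outside the members were read from lists. Of 18 other glycolysis genes 4 passed the minimum in macrophages. Hk3, a hexokinase of myeloid cells, was at 175 CPM in NTT, 105 in RTT_PTGS12KO, 40.7 in RTT_ROSA26 and 62.5 in RTT and was called higher in both contrasts. Aldoc, the brain-type aldolase, was called higher in RTT_PTGS12KO, by 0.85. Hk3, Aldoc and Nos2 were also called lower in RTT_ROSA26 than in RTT, by -0.61, -0.88 and -0.87, so their knockout ratios were taken against a low control. Ldhb, the subunit of lactate dehydrogenase that favours lactate use, was at 9.35, 11.2, 19.6 and 25.5 CPM in that order and was called lower in both. Of 23 other HIF targets 12 passed, with medians of -0.15 in the therapy contrast and 0.00 in the knockout contrast. Nos2, the inducible nitric oxide synthase, was called higher in both contrasts, at 43.5, 20.0, 3.99 and 8.10 CPM; Ero1l, Fam162a and Gys1 were called higher in RTT_PTGS12KO, Bnip3l, Plod1 and Bhlhe41 lower in NTT, and Bhlhe41 lower in RTT_PTGS12KO. Vegfa was at 157, 134, 157 and 222 CPM and was not called. Of 6 genes of the HIF machinery, Arnt, Vhl and Egln2 passed, and none was called.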

How the data were processed

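The authors deposited UMI counts per gene and cell, as a matrix of 33368 cells and 32285 genes with a table of cell types. Per the study's methods and the submitters' notes, the reads were processed with Cell Ranger on mm10, each kept cell had over 1000 genes, with mitochondrial reads below 15% and ribosomal reads below 40%, and types were named in Seurat 4.3.0. Cells carrying the tags of several samples were removed by that processing; doublets within a sample were not called here. Counts were summed per type and tumour and scaled to CPM in Python 3.11.15 (numpy 2.4.6, scipy 1.17.1, pandas 2.3.3). Bounds of a ratio came from exact binomial bounds on the split of the summed counts, and bounds of a level from exact Poisson intervals. Types or classes with under 50 cells in a tumour were not compared on their own. Such types still counted within their class and within all cells. In the split of level and composition they took the level of the pooled UMIs of both tumours. A call needs 1.5-fold, a 95% counting interval that leaves out 0, and a mean of 10 CPM or more over the tumours with enough cells. On simulated counts the rule recovered 100% of 200 genes changed by 1 log2 unit among 7088 in macrophages (knockout contrast) and 99.0% of 200 among 6473 in monocytes (therapy contrast). These counts held sampling of molecules at the observed depth and no variation between tumours, so they say nothing of that variation. Changes near 1.5-fold and RTT_ROSA26 monocytes were not simulated. The alternatives included edgeR's TMM factors (4.0.16, R 4.3.3), CPM + 10, no minimum, other totals, stricter cell filters, equal weights of types, assignment of cells by markers and dropping the 5% of cells with the most UMIs. All 33 members are reported; the members and the lists beside them were chosen with earlier results of these data known. The labels give 1 sample per group; they name 1 tumour for each and the study's figure legends pooled tumours, which was not settled. Reads from near copies may be shared: Eno1b, a near copy of Eno1, held 19.6 to 24.3 CPM over all cells, and Aldoa.1, Aldoart1 and Gapdhs at most 6 UMIs per tumour.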

Additional observations from a re-analysis of the deposited data

How the results depend on the processing

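No paired analysis was possible because there was 1 sample per group. Of the list medians under the alternatives, 97 of 116 stayed within their interval or spread and 111 kept their sign; the 5 that changed sign were medians of the other HIF targets in macrophages, 4 of them in NTT against RTT, where -0.04 became 0.08 with no minimum, 0.02 without the cells with the most UMIs, and the values given next with equal weights and markers. Of the counts of members past 1.5-fold, 65 stayed within 1.5 times and 19 did not. In macrophages, NTT against RTT, weighting types equally (TAM_cycling and TAM_H2Ab1 only) gave medians of 0.58 for the glycolytic genes and 0.45 for the other HIF targets, 13 members higher and 1 lower, and reversed Ddit4 to 0.0527; assigning cells by markers (2779 NTT macrophages in place of 308) gave 0.55, 0.19 and 12 higher, and dropping the 5% of cells with the most UMIs gave 5 higher. In RTT_PTGS12KO against RTT_ROSA26 the glycolytic median of macrophages was 0.46 with CPM + 10 (and 0 members lower), 0.59 with TMM, 0.51 without mitochondrial and ribosomal genes, 0.40 with equal weights and 0.59 by markers; that of the other HIF targets was 0.33 with no minimum and 0.34 with TMM. TMM moved the all-gene median there from -0.08 to 0.01. In RTT_ROSA26 against RTT, TMM gave -0.24 for the glycolytic genes, -0.22 for the other HIF targets and 4 members lower; equal weights gave -0.0029, a reversed 0.0194 and 0 lower; CPM + 10 gave 1 lower. In monocytes, NTT against RTT, CPM + 10 left 4 members higher; leaving out mitochondrial and ribosomal genes gave 4 higher and a glycolytic median of 0.26; markers gave 1 lower. For the knockout contrast in monocytes, equal weights gave 3 higher and 1 lower, markers 4 higher and 2 lower, and no mitochondrial and ribosomal genes 1 lower. In RTT_ROSA26 monocytes against RTT, 4 were lower without the cells with the most UMIs, 2 lower with equal weights, and 1 higher by markers. The TAM_Spp1 minus TAM_C1q median of the other HIF targets was 0.31 with TMM and 0.35 by markers, and that of the glycolytic genes 0.46 by markers; leaving out each tumour gave 0.21 to 0.37 for the glycolytic genes and 0.13 to 0.19 for the others. The cause of these shifts was not tested. Among the pooled classes depth limits RTT_ROSA26 monocytes (144 cells) and NTT macrophages (308 cells) most. Single types were thinner, down to 54 cells for Monocyte_1 in RTT_ROSA26. With 1 sample per group the spread within a group stays unknown.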
